A study of Medicago sativa with 15 samples.

Results

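Roots of alfalfa (Medicago sativa) seedlings after 24 h of alkaline stress were set against roots after 12 h of the same stress. The members are the libraries whose titles give these times, 3 at 24 h and 3 at 12 h, which are 6 of the 15 libraries of the series. Roots at both times were kept in NaHCO3 at 50 mmol/L. The 3 libraries of roots under normal conditions, called control, are placed beside them. Control libraries carry alkaline stress in their treatment label too, so their titles decided the group. No cultivar, plant age or clock time is given, and none of the labels dates the control. Length of stress and time of sampling can therefore not be told apart. Nothing in the labels ties a replicate to a separate plant or culture, so p-values measure the spread between libraries, which may be technical.

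Alfalfa is an outcrossing, tetraploid legume grown for forage. Sodium bicarbonate brings sodium, bicarbonate and a high pH to the root at once. As background, a high pH lowers the solubility of iron and phosphate and works against the proton gradient that drives uptake across the root plasma membrane. Plant roots are known to answer with plasma membrane proton pumps, release of organic acids, iron uptake genes and sodium export. None of the gene IDs was paired with a name in the tables used here, so these groups of genes could not be looked up. The labelled tissue could not be checked by marker genes for the same reason. Genes are described by ID, by coding length and by their level in each library.

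Read counts summed to 7277241, 12500077 and 14655976 in 24 h replicates 1, 2 and 3, and to 6863315, 13196868 and 12204421 in 12 h replicates 1, 2 and 3. The control libraries held 11266060 to 14262860 counts. Levels are given as CPM, the count scaled to a common library total after TMM scaling, which can be compared between libraries but not between genes of unequal length. In bulk roots, fewer cells of a type and less RNA per cell cannot be told apart.

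The libraries of a time did not resemble one another equally. At 24 h, replicate 1 lay between the other libraries at 71.9% of 18071 well-counted genes, and at 12 h replicate 1 did so at 76.6% of 18264 genes. The corresponding share was 13.5% to 14.6% for 24 h replicates 2 and 3, 10.2% to 13.2% for 12 h replicates 2 and 3, and 23.1% to 38.8% for the controls. The replicates 1 were also the shallowest, with 0.536 (24 h) and 0.54 (12 h) of the mean total of the other libraries of their time. Whether they are separate samples of their group is not given, so results are given with and without them.

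Among the remaining libraries, 24 h replicates 2 and 3 had a Pearson correlation of 0.717 with each other, and 12 h replicates 2 and 3 had 0.528 (log2(CPM + 1), across 28014 genes, which are not independent replicates). 12 h replicate 3 had correlations of 0.654 and 0.677 with 24 h replicates 2 and 3, higher than with 12 h replicate 2. 12 h replicate 2 had 0.523 and 0.533 with the same 24 h libraries. The control libraries correlated with one another at 0.801 to 0.877.

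**Figure D1:**
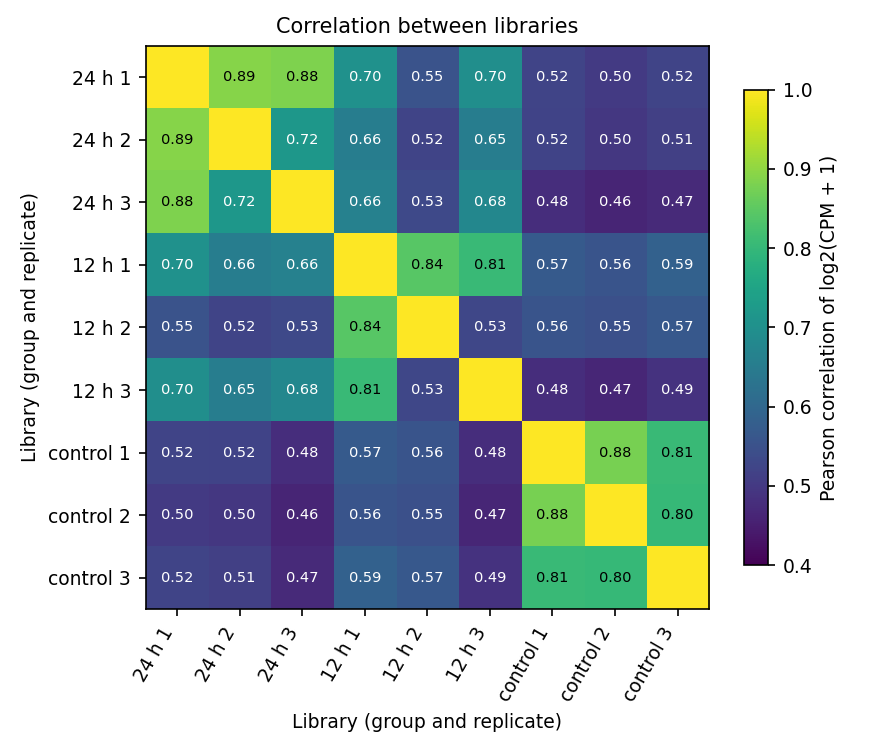
Pearson correlation of log2(CPM + 1) between each pair of libraries at 24 h, 12 h and in control, labelled by group and replicate, with the color scale at the right. The 24 h and 12 h replicates 1 correlate with both other libraries of their time at 0.807 or more, while 12 h replicates 2 and 3 stand at 0.528.

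With all 15 libraries in the fit, 1923 of 68605 genes tested passed edgeR's quasi-likelihood test with an adjusted p of at most 0.05, which is 2.8% of them. Of these, 798 (1.16%) were higher and 1125 (1.64%) were lower at 24 h. The median log2 fold change was 3.54 among the higher genes (lower and upper quartile 2.51 and 5.35) and -4.00 among the lower genes (quartiles -6.47 and -2.77). A change of at least 4-fold was fitted for 724 of the higher and 1054 of the lower genes, and for 22.3% of all genes tested. No gene under 2-fold passed, so large folds among the called genes follow in part from the test. The median over all genes tested was -0.05. DESeq2 on the same 15 libraries called 7670 genes, 3342 higher and 4328 lower.

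Without 24 h replicate 1 and 12 h replicate 1, 6 of 72970 genes passed in edgeR (0.00822%), 4 higher (0.00548%) and 2 lower (0.00274%), while 7123 (9.76%) had an unadjusted p of at most 0.05. On the same libraries limma-voom called 23 genes and DESeq2 1654. Without the libraries of that kind at 4 h and 8 h as well, edgeR called 0 genes, and 4526 genes had an unadjusted p of at most 0.05. The fold changes themselves hardly moved. All 798 higher and 1125 lower genes kept their sign without the replicates 1, on libraries that are part of the same fit. Their median log2 fold change was then 3.49 and -3.96. The replicates 1 lay between the other libraries at most well-counted genes, so leaving them out moves the means little. These values are therefore no separate support for the calls. The count also rested on single libraries. When a 24 h library was left out it became 119 (replicate 1), 392 (replicate 2) or 519 (replicate 3). Leaving out 12 h replicate 1 or 2 gave 221 or 579, and leaving out control replicate 1 or 2 gave 1247 or 1279. In the fits that lacked one 24 h library, the higher genes outnumbered the lower (73 against 46, 222 against 170 and 295 against 224), so the excess of lower genes was lost there. In the fits that lacked a 12 h library the lower genes outnumbered the higher. The counts were 45 higher against 176 lower (without replicate 1), 186 against 393 (replicate 2) and 614 against 1510 (replicate 3). Higher genes made up 20.4%, 32.1% and 28.9% of these calls, beside 41.5% of the 1923 calls with all 15 libraries.

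**Figure D2:**
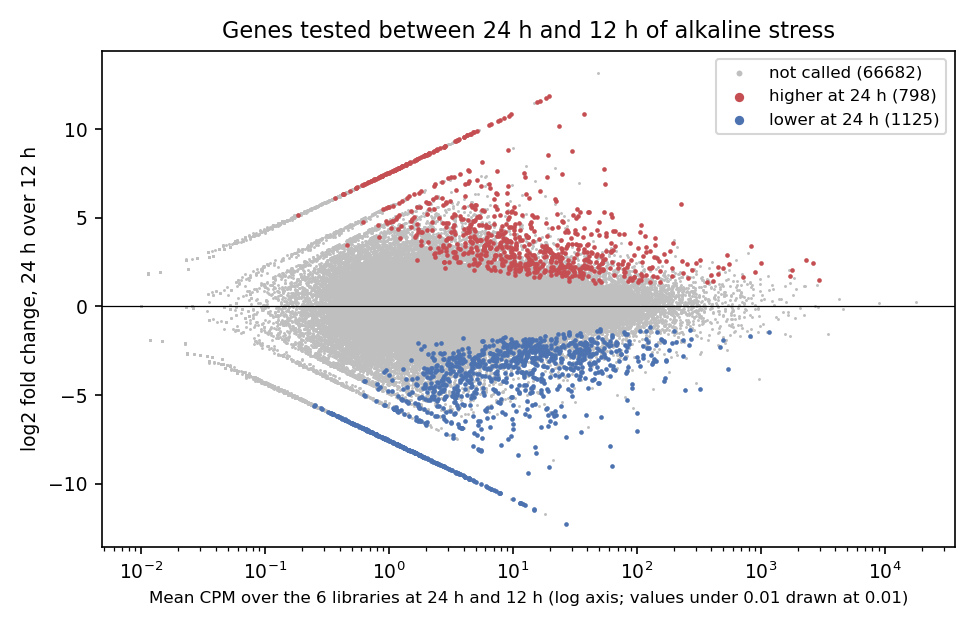
Fitted log2 fold change of 24 h over 12 h for each of the 68605 genes tested, against the mean CPM over the 6 libraries on a log axis. Red points are the 798 genes called higher at 24 h, blue points the 1125 called lower and grey points the genes not called. The diagonal bands at the left hold genes with no count at one of the times.

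The share of genes called was larger at higher levels. It was 1.08% among 16004 genes with a mean below 1 CPM over the 6 libraries, 2.45% between 1 and 5 CPM, 3.43% between 5 and 20 CPM, 5.17% between 20 and 100 CPM and 7.33% among the 1432 genes at 100 CPM or more. Lower genes outnumbered higher ones below 1 CPM (125 against 48), while at 100 CPM or more 59 were higher and 46 lower. The median coding length was 1146 nt for the higher genes, 1092 nt for the lower genes and 1152 nt for all genes tested.

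The genes named here are those with the widest gap between the 24 h and the 12 h libraries among called genes with a mean of at least 5 CPM, a pair in each direction. MS.gene063813 (coding length 954 nt) had 109, 124 and 92.3 CPM at 24 h and 0.135, 0 and 1.34 CPM at 12 h, in replicates 1, 2 and 3. Its control libraries had 63.1, 43.5 and 58.6 CPM. Every 24 h library was therefore far above every 12 h library, and also above every control. The mean was 108 ± 15.7 CPM at 24 h and 0.49 ± 0.735 CPM at 12 h (SD, n = 3), a log2 fold change of 7.74 ± 1.06 (SE, edgeR adjusted p = 0.00434). Against control the same fit gave 0.98 ± 0.78 at 24 h (edgeR adjusted p = 0.448) and -6.77 ± 1.02 at 12 h (edgeR adjusted p = 0.00172).

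MS.gene016539 (891 nt) had 110, 106 and 112 CPM at 24 h, against 0.808, 0 and 1.96 CPM at 12 h and 163, 173 and 269 CPM in control. The 24 h libraries stood between those of 12 h and those of control, with no overlap. Its log2 fold change of 24 h over 12 h was 6.90 ± 0.87 (SE, edgeR adjusted p = 0.00225). Against control the fit gave -0.88 ± 0.66 at 24 h (edgeR adjusted p = 0.416) and -7.78 ± 0.9 at 12 h (edgeR adjusted p = 0.000438). The level was already low earlier in the course, with a mean of 4.06 ± 0.423 CPM at 4 h and 2.14 ± 0.329 CPM at 8 h (SD, n = 3). MS.gene063813 had 12.2 ± 1.38 CPM at 4 h and 0.308 ± 0.279 CPM at 8 h. Both genes were thus lower than control in each library at 4, 8 and 12 h, and among stressed libraries only those at 24 h reached 92.3 CPM or more.

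MS.gene059401 (330 nt) moved the other way. It had 0.285, 0.932 and 0.275 CPM at 24 h, against 124, 176 and 67.5 CPM at 12 h and 43.2, 135 and 42.8 CPM in control. The 12 h and control libraries overlapped, and all 3 libraries at 24 h lay below both. A level below every control was not particular to 24 h. It was also seen at 4 h (6.2, 4.54 and 2.26 CPM) and at 8 h (34.2, 35.2 and 35.4 CPM). The log2 fold change of 24 h over 12 h was -7.89 ± 0.77 (SE, edgeR adjusted p = 0.000503). Against control the fit gave -7.16 ± 0.75 at 24 h (edgeR adjusted p = 0.000182) and 0.73 ± 0.56 at 12 h (edgeR adjusted p = 0.458). This gene also passed in edgeR without the replicates 1 (edgeR adjusted p = 0.0293), but not in limma-voom (adjusted p = 0.0644).

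MS.gene024034 (321 nt) had 0.428, 0.678 and 0.412 CPM at 24 h, against 76.6, 79.4 and 54.9 CPM at 12 h and 16.5, 9.27 and 46.2 CPM in control. The 12 h libraries lay above all controls and the 24 h libraries below them. Its log2 fold change was -7.08 ± 1.27 (SE, edgeR adjusted p = 0.0133). Against control the fit gave -5.53 ± 1.2 at 24 h (edgeR adjusted p = 0.00944). At 12 h it gave 1.55 ± 0.97 (edgeR adjusted p = 0.352), so the higher level at 12 h than in control was not called. At 8 h its libraries ran from 0.271 to 50.3 CPM, so the level varied widely within that time. The call was lost when 24 h replicate 1, 2 or 3 was left out (edgeR adjusted p 0.081, 0.0542 and 0.0528). Per length, the mean FPKM was 110 for MS.gene063813 and 119 for MS.gene016539 at 24 h, and 388 for MS.gene059401 and 227 for MS.gene024034 at 12 h. Without the replicates 1, MS.gene063813, MS.gene016539 and MS.gene024034 missed the threshold (edgeR adjusted p 0.162, 0.119 and 0.267) with log2 fold changes of 7.36, 6.83 and -6.92. Which genes passed depended on the method. On the same libraries the limma-voom adjusted p was 0.0407, 0.0366 and 0.344 for these genes, and 0.0644 for MS.gene059401. The DESeq2 adjusted p was at most 0.000112 for each named gene.

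**Figure D3:**
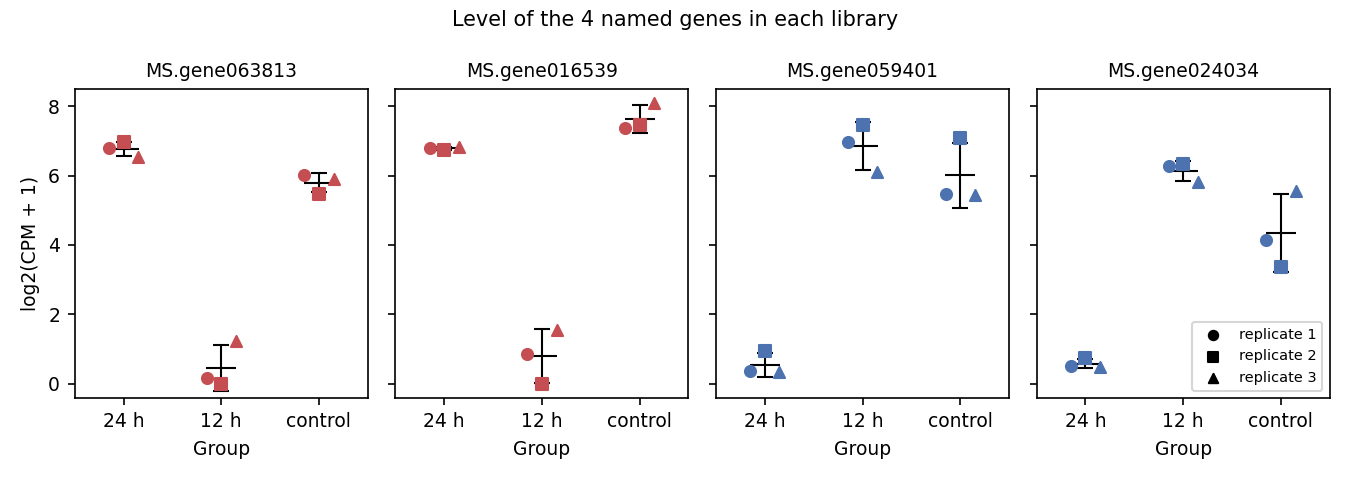
log2(CPM + 1) of the 4 named genes in each library at 24 h, at 12 h and in control. Points are libraries (circle, square and triangle for replicates 1, 2 and 3), and bars give the mean ± SD of 3 libraries on this scale. MS.gene063813 and MS.gene016539 sit near the bottom at 12 h only, and MS.gene059401 and MS.gene024034 at 24 h only.

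All 6 genes that passed in edgeR without the replicates 1 had also passed in the same direction with them. MS.gene059401 is one of them, and the other five are described by coding length. A gene of 933 nt had no count in any 12 h library, against 311, 226 and 799 counts at 24 h, at least 417-fold higher (bound against 3 counts over the 3 libraries at 12 h). It had 44.4, 19.2 and 54.8 CPM at 24 h, and 40.7, 13.5 and 47.9 CPM in control. It was also without a count in the 3 libraries at 4 h, yet had 87.3 to 122 CPM at 8 h. It was therefore not counted at 4 h and at 12 h, and was counted in every library of the other groups.

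A gene of 1725 nt had no count at 12 h, against 39.2, 26.9 and 44.4 CPM at 24 h, which by the same bound is at least 387-fold higher. In control it had 8.64, 2.95 and 5.06 CPM, so here 24 h stood above every control library (log2 fold change against control 2.73 ± 0.63, SE, edgeR adjusted p = 0.0154). This was not particular to 24 h, as the 4 h libraries (14.2, 11.6 and 10.6 CPM) also lay above every control. At 8 h it had 7.58, 45.8 and 29.9 CPM. A gene of 891 nt other than MS.gene016539 had 50.1, 65.7 and 25.2 CPM at 24 h, a single count among the 3 libraries at 12 h, and 47, 39.5 and 23.2 CPM in control. Its ratio of pooled counts was 1400 (exact 95% interval 251 to 55300, counting error only). The 24 h libraries overlapped the controls, and the means were 3.41 CPM at 4 h and 0.9 CPM at 8 h.

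The fourth higher gene, of 2085 nt, had 17.8, 6.87 and 30.1 CPM at 24 h, a single count at 12 h, and 9.6, 13 and 9.14 CPM in control (ratio of pooled counts 604, exact 95% interval 108 to 23900). It was highest at 4 h, with 37.7 ± 4.5 CPM (SD, n = 3). The second lower gene, of 1236 nt, had 0.285, 0.509 and 0.481 CPM at 24 h, against 40.8, 23.1 and 65.1 CPM at 12 h and 1.59, 1.51 and 0.355 CPM in control. It stood far above control at 12 h (log2 fold change 5.20 ± 0.6, SE, edgeR adjusted p = 0.000438) and had means of 14.5 CPM at 4 h and 56 CPM at 8 h. Every library at 4, 8 and 12 h lay above every control, and the 24 h libraries overlapped the controls.

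As a group, the 798 higher genes took 53650, 61169 and 70111 CPM of the libraries at 24 h, in ascending order, and 11227, 11314 and 14005 CPM at 12 h. The control libraries gave them 25508, 25855 and 30194 CPM, between the levels of the stressed times. Their 10 most abundant members held 40.7% of the summed level at 24 h. Without these the remaining members took 34135 to 39141 CPM at 24 h, 5732 to 7583 CPM at 12 h and 19233 to 20258 CPM in control, so the order of the groups did not rest on them.

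The 1125 lower genes took 6649, 6717 and 6997 CPM at 24 h, against 37320, 38781 and 45671 CPM at 12 h and 27934, 28005 and 36394 CPM in control. The control libraries lay below those at 12 h with no overlap. The 10 members highest at 12 h held 19.4% of the summed level there. Without them the others took 4973 to 5021 CPM at 24 h, 29698 to 36919 CPM at 12 h and 23729 to 30731 CPM in control. The highest control then overlapped 12 h, while the median control stood at 24438 CPM. These members were picked by their 12 h level, so leaving them out lowers the 12 h sums most. Whether the order of 12 h and control rested on abundant genes is therefore not decided. The called genes were chosen by the contrast of 24 h and 12 h, so the distance between these times in the sums follows from the choice. The control libraries entered that contrast through the shared spread, the filter and the scaling, but not through the means compared.

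**Figure D4:**
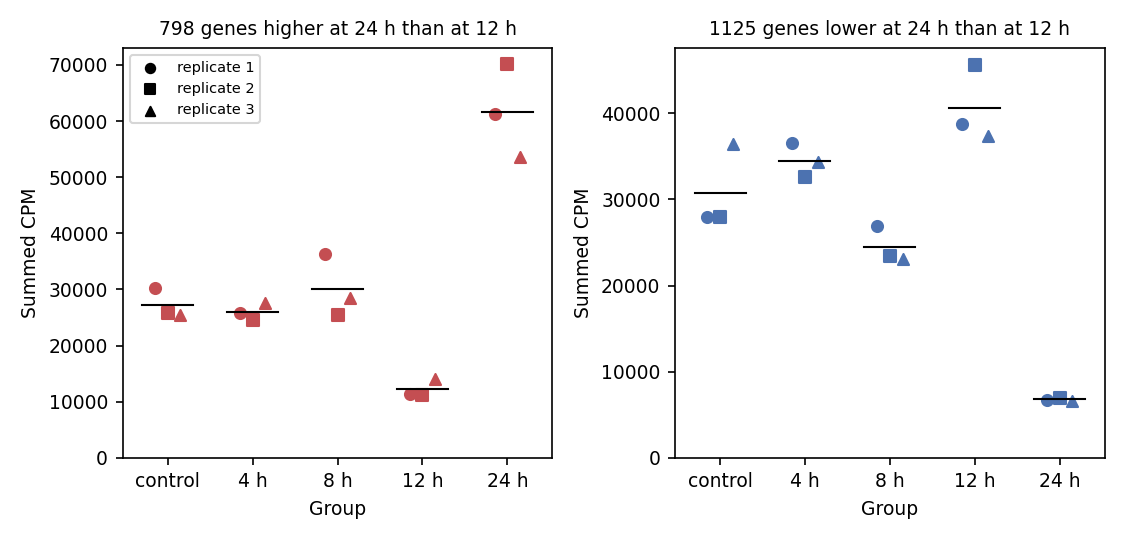
Summed CPM of the 798 genes called higher (left) and the 1125 called lower (right) at 24 h than at 12 h, in each library of control, 4 h, 8 h, 12 h and 24 h. Points are libraries and lines are means of 3; the vertical axes start at 0. The higher genes stand at 11227 to 14005 CPM at 12 h and at 24527 to 36333 CPM in control, 4 h and 8 h. The lower genes stand at 6649 to 6997 CPM at 24 h and at 23134 CPM or more in every other library.

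Each change was then placed beside the control level. For the 798 higher genes the control mean lay between the means of both times at 516 (64.7%), above both at 169 (21.2%) and below both at 113 (14.2%). For the 1125 lower genes it lay between them at 716 (63.6%), above both at 352 (31.3%) and below both at 57 (5.07%). Among genes that were not called but had a fitted change of at least 4-fold, the control lay between the times at 55.2% of 6010 higher and 52.5% of 7484 lower genes. Over all genes tested these shares were 29.2% and 31.3%, where the times themselves differ little. Without the replicates 1 in the means, the shares of called genes with control between the times were 64.0% (higher) and 64.5% (lower).

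The control was nearer to 24 h than to 12 h at 53.0% of the higher genes and at 32.1% of the lower genes, on the scale of log2(CPM + 1). The same shares were 51.0% and 38.2% among uncalled genes with a 4-fold change, and 46.1% and 46.8% over all genes tested, so that of the higher genes was near the background. By the ranges of the 3 libraries, the controls overlapped the 24 h libraries alone at 318 higher genes (39.8%) and the 12 h libraries alone at 208 (26.1%). In the first class the median level was 11.7 CPM at 24 h, 0.656 CPM at 12 h and 8.2 CPM in control, so these genes were low at 12 h and near control at 24 h. In the second class it was 25.1 CPM at 24 h, 4.13 CPM at 12 h and 4.16 CPM in control.

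Among the lower genes the larger class was the other one. The controls overlapped the 12 h libraries alone at 564 genes (50.1%), with a median level of 0.533 CPM at 24 h, 9.14 CPM at 12 h and 7.6 CPM in control. They overlapped the 24 h libraries alone at 182 genes (16.2%), with medians of 2.02 CPM at 24 h, 22.0 CPM at 12 h and 2.71 CPM in control. Among uncalled genes with a 4-fold change, the controls overlapped 24 h alone at 26.3% of higher and 13.5% of lower genes. They overlapped 12 h alone at 1199 of the 6010 higher and at 34.1% of the lower ones. There the 24 h and 12 h libraries themselves often overlap, which leaves fewer genes for these classes. In the gap between the times, clear of both, were the controls of 147 higher (18.4%) and 173 lower genes (15.4%). Among uncalled genes with a 4-fold change these shares were 2.2% and 2.02%. The class needs a gap between the times, which called genes mostly have by their choice. All 3 controls exceeded all 6 stressed libraries at 61 higher (7.64%) and at 146 of the 1125 lower genes. Among uncalled genes with a 4-fold change the controls did so at 6.92% of the higher and at 809 of the 7484 lower ones (10.8%). All 3 controls lay below all 6 at 40 called higher (5.01%) and 17 called lower genes (1.51%), beside 2.85% and 0.855% of the uncalled ones.

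**Figure D5:**
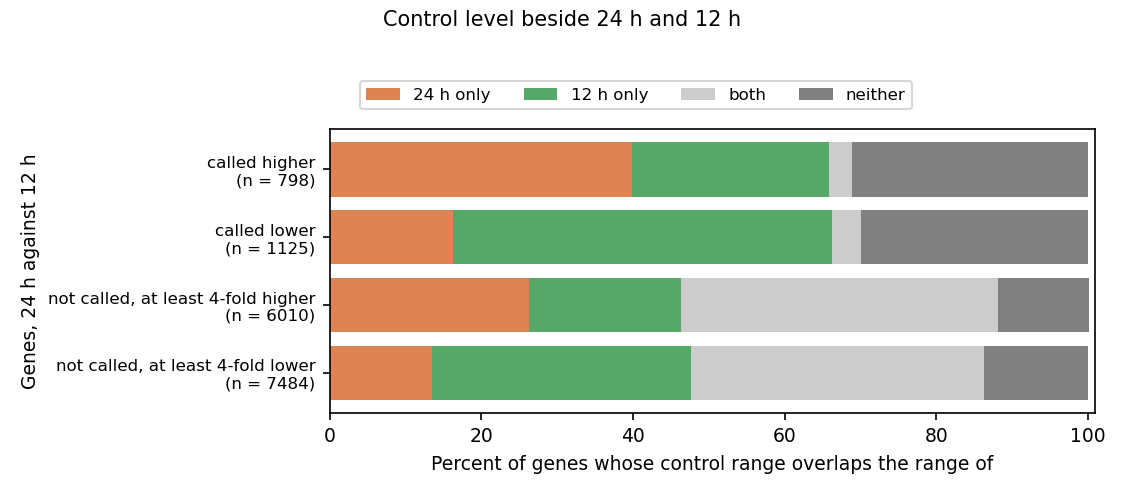
Percent of genes whose range of 3 control libraries overlaps the range of the 24 h libraries only, of the 12 h libraries only, of both or of neither. The rows are genes called higher and lower at 24 h, and genes not called with a fitted change of at least 4-fold. Overlap with 24 h alone is the longest segment among called higher genes (39.8%), and overlap with 12 h alone among called lower genes (50.1%).

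The fits against control give the same genes from another side, although these comparisons share the 12 h, 24 h and control libraries with the choice of the genes and are not independent of it. Of the 798 higher genes, 247 were called higher than control at 24 h (31.0%, against 4.61% of all genes tested), and 373 were called lower than control at 12 h (46.7%, against 4.36%). Their median log2 fold change against control was 1.26 at 24 h and -2.41 at 12 h. Of the 1125 lower genes, 712 were called lower than control at 24 h (63.3%, against 6.86%), and 168 were called higher than control at 12 h (14.9%, against 2.92%). Their medians were -3.32 at 24 h and 0.72 at 12 h. The medians over all genes tested were -0.08 and 0.00.

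The called genes were then followed over the whole course. For the higher genes the median difference from control in log2(CPM + 1) stood at -0.18 after 4 h, 0.05 after 8 h, -1.29 after 12 h and 1.07 after 24 h. The lower genes stood at -0.20 after 4 h, -0.39 after 8 h, 0.60 after 12 h and -1.63 after 24 h. Over all genes tested it lay between -0.13 and 0.00. The medians at 4 h and 8 h cover genes on both sides of control. The quartiles of the higher genes were -1.21 and 0.79 after 4 h and -1.16 and 0.95 after 8 h, and those of the lower genes -1.23 and 0.80 after 4 h and -1.41 and 0.52 after 8 h. Over all genes tested they were -0.91 and 0.65 after 4 h and -0.80 and 0.64 after 8 h. Of the 5 groups, 24 h held the highest mean at 496 of the higher genes (62.2%) and 12 h the lowest at 521 (65.3%). Of the lower genes, 24 h held the lowest mean at 894 (79.5%) and 12 h the highest at 549 (48.8%). Among uncalled genes with a 4-fold change, 24 h was highest at 49.4% and 12 h lowest at 47.0% of the higher ones, and 24 h was lowest at 4115 of 7484 and 12 h highest at 41.5% of the lower ones. The choice of genes by these times raises all of these shares, so they are a description. Control held the highest mean at 279 of the lower genes (24.8%), beside 26.6% of the uncalled ones.

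A gap between the libraries can be counted without a model. Among 27208 genes with a mean of at least 5 CPM over the 6 libraries, all 24 h libraries lay at least 2-fold above all 12 h libraries at 922 (3.39%) and at least 2-fold below them at 798 (2.93%), in CPM + 1. With replicates 2 and 3 alone the counts were 1068 (3.93%) and 938 (3.45%). A gap of at least 4-fold in all 6 libraries was found at 208 and 175 genes. Of the genes with a 2-fold gap in 6 libraries, 426 of 922 and 417 of 798 were called by edgeR. Among all 27208 genes, 528 were called higher and 601 lower. The gap and the contrast rest on the same 6 libraries, so this overlap follows in part from the choice.

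Some genes were counted at one time and not at the other. With no count in any 12 h library and at least 1 CPM (here of the library total) in every 24 h library there were 120 genes, and 182 showed the reverse. These genes were mostly of low level, with a median of 3.05 CPM at 24 h for the first set and 2.7 CPM at 12 h for the second. All 3 controls had at least 1 CPM at 29 of the 120 and 40 of the 182, and no control had a count at 13 and 15. Of the 120 genes 75 were called, and of the 182 genes 122, beside 2.8% of the 68605 genes tested. They were picked by the same contrast, so a high share called follows from the choice. In the whole series 108456 genes had a count. At this depth, no count in the 12 h libraries does not show that a gene was silent.

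Between single libraries such differences were far more common, also within a time. At least 1 CPM in one library and no count in the other was found at 2975 and 2039 genes between 24 h replicates 2 and 3, and at 1716 and 3073 genes between 12 h replicates 2 and 3. A 24 h library against a 12 h library, without the replicates 1, gave 2152 to 2222 genes counted at 24 h only and 1794 to 4136 at 12 h only. The numbers between times thus overlapped those within a time, and few of these genes held across all 6 libraries.

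The spread between replicates also differed between the times. Replicates 2 and 3 were at least 4-fold apart (CPM + 1) at 11.8% of the 27208 genes at 24 h and at 21.6% at 12 h. For the genes called higher these shares were 11.7% at 24 h and 4.26% at 12 h. For those called lower they were 1.69% at 24 h and 24.1% at 12 h. At their low time these genes were near the floor, with medians of 1.35 CPM (higher genes, 12 h) and 0.661 CPM (lower genes, 24 h). Adding 1 CPM limits the fold there, so the shares of called genes do not compare the spread of the replicates between the times. Among genes not called with a fitted change of at least 4-fold, the 24 h and 12 h libraries overlapped at 43.0% of the higher and 46.1% of the lower ones. The share was 67.6% over the 27208 genes, and 1.25% and 4.71% among the genes called higher and lower, where it follows from the test.

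The number of genes detected was compared as a single value per library, in a design of 3 against 3 that cannot reach 0.05. With every library thinned to 6863315 counts, 71155 ± 3897.1 genes were detected at 24 h and 74388 ± 3823.7 at 12 h (SD, n = 3; exact two-sided permutation test, p = 0.4, with 0.1 the smallest possible). Control libraries had 74424 ± 2599.1. The 10 most abundant genes took 6.07 ± 0.334% of the counts at 24 h and 5.76 ± 0.635% at 12 h (SD, n = 3; exact permutation test, p = 0.5), beside 2.92 ± 0.243% in control. Both stressed groups thus stood above every control library, at 5.34% or more against at most 3.2%, while they overlapped each other.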

How the data were processed

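Per the labels' protocols, RNA from roots was extracted with a column kit and made into libraries with a SMARTer mRNA kit. The authors deposited raw read counts per gene for 164632 IDs and FPKM for the same IDs; for aligner, counting tool, strand setting or genome build, the sources used here give nothing. Reads shared by alleles or paralogs of this tetraploid may be split uncertainly. Count and deposited FPKM gave 1 length per gene in every library; 95.96% of lengths were multiples of 3, hence coding length. None of the IDs was found in the RefSeq gene table of the Bolivia_mono assembly (0 matches), so lists of named genes and marker genes were not used.

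Counts were filtered (filterByExpr), scaled (TMM) and fitted with edgeR 4.0.16 (R 4.3.3) as 5 groups over all 15 libraries; glmQLFTest gave 24 h minus 12 h and each time against control, two-sided, with Benjamini-Hochberg adjustment over 68605 genes and a threshold of 0.05. The SE is the log2 fold change divided by the square root of F. Placement, gaps and on/off counts are descriptions. The IDs printed are those with the largest ratio of lowest to highest library (CPM + 1) between the times. Scripts were tested on simulated data. Members, lists and rules were chosen with earlier results of these data known. Alternatives used DESeq2 1.42.0, limma 3.58.1 (voom, or log2 of FPKM with a pseudocount of 1 or 0.1), other scalings and filters, other sets of libraries and a replicate block. Intervals and floors cover counting error only. Well-counted genes had at least 300 counts over a group's libraries.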

Additional observations from a re-analysis of the deposited data

How the results depend on the processing

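The 1923 calls (798 higher, 1125 lower) depended most on the libraries. Leaving out 1 library gave 119 to 2124 calls, 45 to 693 higher and 46 to 1510 lower. Without 12 h replicate 1 and 24 h replicate 1 there were 6 (4 higher, 2 lower) in edgeR and 23 (17 higher, 6 lower) in limma-voom. With 11 libraries, and with only replicates 2 and 3 at 12 h and 24 h, edgeR called 0 (0 higher, 0 lower), with 4526 and 3021 genes at an unadjusted p of at most 0.05. The count was 3655 (1575 higher, 2080 lower) with no filter on low counts, 7670 (3342 higher, 4328 lower) in DESeq2, 3983 (1858 higher, 2125 lower) with limma on log2(FPKM + 1), 3454 (1446 higher, 2008 lower) with log2(FPKM + 0.1), and 124 (57 higher, 67 lower) at an adjusted p of at most 0.01. The cause was not tested. Scaling by DESeq2 size factors or upper quartile gave 1922 and 1951. The replicate block gave 872 calls (392 higher, 480 lower). Deviations of same-numbered libraries at 24 h and 12 h correlated at 0.14, 0.00817 and 0.0283, so the numbers gave no clear pairing of the libraries. Each library correlated best with its own number. For 24 h replicate 2 this was only 0.00817 against 0.00789 with 12 h replicate 1, so no pairing is read from it. No direction of a named gene was reversed under 24 alternatives each, which follows from their choice by the widest gap between the same libraries. MS.gene024034 missed the threshold of 0.05 in 8 of the 24, and each of the other named genes in 3.

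Among called genes with a mean of at least 5 CPM over the 15 libraries, the control lay below both times at 17.9% of higher and 7.12% of lower genes and between them at 60.2% of lower genes. The 2-fold gap counts of 922 and 798 became 208 and 175 at 4-fold, 4672 and 4154 with any gap, and 1531 and 1479 from 1 CPM. The on/off counts of 120 and 182 became 16 and 13 from 5 CPM, by construction. Of the genes below 1 CPM 1.08% were called, and whether depth limited this share was not tested.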
